A study of Mus musculus with 8 samples.

Results

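A set of 10 genes of the NF-kB and chemokine response were followed in mouse neuroblastoma cells transfected for CRISPR activation. They are the chemokines Cxcl10, Ccl5 and Ccl2, the cytokine Il6, the adhesion molecule Icam1, the NF-kB subunit genes Nfkb1, Nfkb2 and Relb, and the inhibitors Nfkbia and Tnfaip3. They were chosen by name, with earlier results of these data known, and all 10 were found among the 55367 genes of the count table. The question was whether the NF-kB arm of the innate response moved beside the interferon arm. Cells of the Neuro2a line were given plasmids for CRISPR activation (CRISPRa), in which sadCas9, a Staphylococcus aureus Cas9 that cannot cut, carries the activator VP64 to a site set by a single guide RNA (sgRNA). The CRISPRa group received 750 ng of sgRNA plasmid with 750 ng of sadCas9-VP64 plasmid, in a series directed at the sodium channel gene Scn2a. The no-sgRNA group received sadCas9-VP64 alone, in an amount the labels do not give, so both groups carry sadCas9-VP64 and neither is untransfected. The guide itself and the added sgRNA plasmid cannot be told apart in this design. The labels list 8 samples, 4 per group, and counts were analysed for 6 of them, namely replicates 2, 3 and 5 of the CRISPRa group and 2, 3 and 4 of the no-sgRNA group. The labels do not say whether replicates were separate cultures, so p-values measure only the spread between these samples.

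NF-kB is a family of transcription factors formed by pairs of the subunits RelA, RelB, c-Rel and the products of Nfkb1 and Nfkb2. In resting cells IkB proteins such as the Nfkbia product hold the pairs in the cytoplasm. Signals from receptors for tumour necrosis factor, interleukins or nucleic acids lead to IkB breakdown, and the freed factor enters the nucleus and raises chemokine, cytokine and adhesion genes as well as its own inhibitors. A non-canonical branch processes the Nfkb2 product and acts through RelB. Sensors of foreign RNA or DNA can switch on NF-kB and the interferon regulatory factors together, and Cxcl10 and Ccl5 are textbook genes that both pathways can raise.

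Libraries held 29739422 to 34248514 counts each. Between 71.6% and 73.8% of the counts from 1 to 19 were even in every library, so a low count may not equal that many independent fragments. The target gene Scn2a had 267, 279 and 231 counts in CRISPRa replicates 2, 3 and 5 and 190, 193 and 130 in no-sgRNA replicates 2, 3 and 4 (log2 fold change, log2FC, 0.48, SE 0.19, edgeR adjusted p 0.0899). Among 15 markers of Neuro2a cells, Hand2 and Gata2 were among the clearly expressed ones in every library, whereas Nefm and Nefl stayed at 6 counts or fewer. The list summed to 1939 to 2108 CPM without the guide and 1682 to 1920 CPM with CRISPRa, and of its 12 tested genes Phox2a (log2FC -0.69, edgeR adjusted p 0.00204) and Hand2 (-0.43, edgeR adjusted p 0.000507) fell while Chga (0.33, edgeR adjusted p 0.0025) and Tubb3 (0.20, edgeR adjusted p 0.0486) rose. Of 12 macrophage and other leukocyte markers, Adgre1, Itgam, Lyz2 and Cd3e had 0 counts in all 6 libraries. The 2 that were tested, Cd68 and Cd14, were not called. Tyrobp, too low to be tested, had 11, 8 and 15 counts with CRISPRa against 0, 6 and 1, without overlap. The list summed to 1.55 to 2.66 CPM without the guide and 2.11 to 2.93 CPM with CRISPRa. CPM denotes counts set to equal library size after correction by the trimmed mean of M-values (TMM), and in bulk RNA fewer cells of a type and less RNA per cell cannot be told apart. The 8 endothelial markers summed to 57.6 to 62.2 CPM without the guide and 42.6 to 49.5 CPM with CRISPRa, with Emcn, Kdr and Cldn5 at 0. Of the 5 tested, Egfl7 fell (log2FC -0.48, edgeR adjusted p 0.00473), and Cdh5, the endothelial cadherin, rose, with 52, 48 and 69 counts against 12, 4 and 22 (log2FC 2.04, edgeR adjusted p 0.0105). The 8 fibroblast markers summed to 28.6 to 32.4 against 14.6 to 21.4 CPM, with Col3a1, Postn and Thy1 at 0. Of the 4 tested, Col1a2 (log2FC -0.88, edgeR adjusted p 0.00659) and Pdgfra (-0.70, edgeR adjusted p 0.00172) fell, and the others were not called. The 8 astroglia and Schwann markers summed to 10.8 to 13.9 against 9.62 to 11.8 CPM. The part these marker genes play in the results below was not tested.

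The chemokines Cxcl10 and Ccl5 rose more than 20-fold with CRISPRa, while Il6, Nfkb2 and Relb rose by less than 2-fold. Nfkb1 and Nfkbia, the most abundant members by CPM in the control libraries, did not pass the test, and neither did Tnfaip3 and Icam1. Ccl2 did not pass the filter on low counts. In all, 9 of the 10 genes passed the filter on low counts, and 5 of these 9 were higher with CRISPRa at an edgeR adjusted p under 0.05 and 0 were lower (at an unadjusted p under 0.05 edgeR added Tnfaip3 to these 5). Over all 15117 genes tested, 18.7% were called, and 9.47% of the tested genes were higher and 9.25% lower. The 3 CRISPRa libraries lay above all 3 controls for 6 of the 9, against 17.7% of all tested genes (36.4% without overlap in either direction). Because the members were chosen with earlier results of these data known, these shares are a description only.

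**Figure D1:**
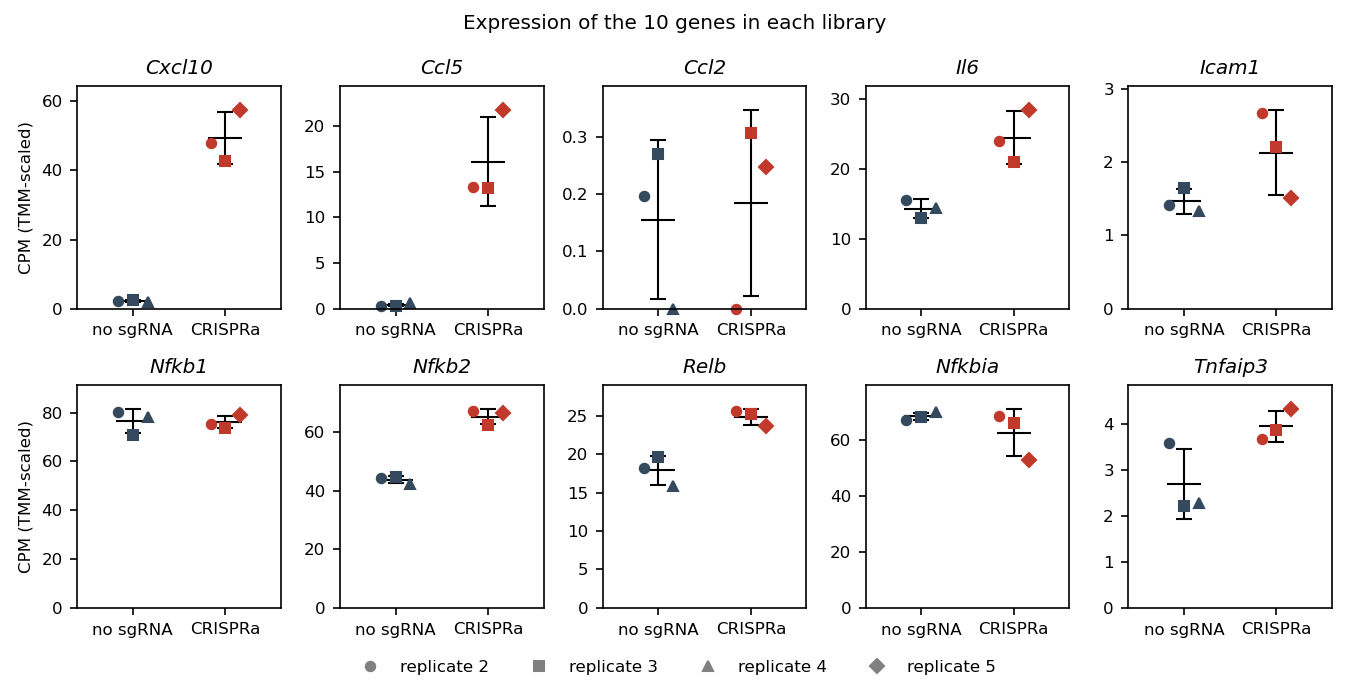
Each panel plots 1 of the 10 genes, with CPM on a linear axis from 0, 1 point per library shaped by replicate number, and a bar for the mean ± SD of 3 libraries per group. Cxcl10 and Ccl5 sit near 0 without the guide and at 42.6 to 57.5 and 13.2 to 21.8 CPM with CRISPRa, whereas the groups of Nfkb1, Nfkbia, Icam1 and Ccl2 overlap.

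Cxcl10 (chromosome 5, 92346638 to 92348889, minus strand, protein coding, GRCm38) encodes the CXC chemokine that draws activated T cells and natural killer cells through CXCR3. It had 1646, 1392 and 1865 counts in CRISPRa replicates 2, 3 and 5. The no-sgRNA libraries 2, 3 and 4 held 65, 72 and 59. Every CRISPRa library was far above every control, and replicate 5 was the highest, at 1.27 times the mean of replicates 2 and 3. The mean level went from 2.14 ± 0.28 to 49.3 ± 7.55 CPM (SD, n = 3). The log2FC was 4.53 (SE 0.15), a 23-fold difference, with an edgeR adjusted p of 4.54e-12. Its exons overlap those of Art3 on the opposite strand over 5.91% of their length, and Art3 had at most 14 counts in any library. The RefSeq promoter of Cxcl10 (GRCm38.p6, chr5:92348840-92349139, minus strand, from 250 bases before to 50 after the start) is shown because it is the 1 member promoter that held matches to the motifs of both arms. In the printed sequences capitals mark matches to a kB pattern of NF-kB sites, GGG then any 3 bases then TTCC, and to a pattern of the interferon-stimulated response element (ISRE), GAAA then any 2 bases then GAAA. Both were searched on both strands, and a match on the minus strand is printed as its reverse complement.
Cxcl10: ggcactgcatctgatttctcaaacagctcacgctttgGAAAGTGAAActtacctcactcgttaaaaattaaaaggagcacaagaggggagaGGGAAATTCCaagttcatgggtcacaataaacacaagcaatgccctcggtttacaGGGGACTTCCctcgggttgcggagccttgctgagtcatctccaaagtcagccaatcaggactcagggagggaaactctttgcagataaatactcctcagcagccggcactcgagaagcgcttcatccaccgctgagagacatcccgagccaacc

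The ISRE match of Cxcl10, GAAAGTGAAA, lies at -213 to -204 relative to the start, and the kB matches GGGAAATTCC and GGGGACTTCC lie at -159 to -150 and -104 to -95. No match of one motif overlapped a match of the other.

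Ccl5 (chromosome 11, 83525778 to 83530518, minus strand, protein coding) encodes the CC chemokine known as RANTES, which draws T cells and monocytes. It had 458, 432 and 706 counts in the CRISPRa libraries (replicates 2, 3 and 5). Its no-sgRNA libraries held 10, 10 and 18 counts (replicates 2, 3 and 4). The groups did not overlap, and CRISPRa replicate 5 stood at 1.64 times the mean of the other CRISPRa libraries. Ccl5 went from an average of 0.411 ± 0.137 to 16.1 ± 4.91 CPM (SD, n = 3). The log2FC was 5.27 (SE 0.28), a 38.6-fold difference, with an edgeR adjusted p of 2.59e-09. None of the 50-base words of Cxcl10 or Ccl5 transcripts occurs in transcripts of another gene.

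Ccl2 (chromosome 11, 82035571 to 82037453, plus strand, protein coding) encodes the monocyte chemoattractant MCP-1, a classical NF-kB target. Counts of 0, 10 and 8 with CRISPRa stood beside 6, 8 and 0 without the guide. Each group thus held 1 library with no count, and the groups overlapped. The means were 0.184 ± 0.162 and 0.155 ± 0.139 CPM (SD, n = 3), and an exact permutation test, two-sided, on the 6 CPM values gave p = 0.8, where 3 libraries against 3 allow no p under 0.1. A small change of Ccl2 was not detectable at this depth, at which 3 counts correspond to 0.0871 to 0.101 CPM. A rise like that of Ccl5, from 10, 10 and 18 counts to 458, 432 and 706, was not seen. When only genes with no count were dropped, all 10 members were tested and Ccl2 was not called.

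Il6 (chromosome 5, 30013114 to 30019981, plus strand, protein coding) encodes interleukin-6, a cytokine of the acute phase response. It was already expressed without the guide, where replicates 2, 3 and 4 held 476, 384 and 454 counts. With CRISPRa it had 827, 683 and 922 counts in replicates 2, 3 and 5. The lowest CRISPRa library, at 20.9 CPM, lay above the highest control, at 15.6 CPM. Il6 rose from 14.3 ± 1.34 to 24.4 ± 3.77 CPM (SD, n = 3), a log2FC of 0.77 (SE 0.13), or 1.71-fold, with an edgeR adjusted p of 0.000664. The Il6 promoter (GRCm38.p6, chr5:30012864-30013163, plus strand) is shown beside that of Cxcl10 because it held a kB match, GGGATTTTCC at -44 to -35, and no ISRE match.
Il6: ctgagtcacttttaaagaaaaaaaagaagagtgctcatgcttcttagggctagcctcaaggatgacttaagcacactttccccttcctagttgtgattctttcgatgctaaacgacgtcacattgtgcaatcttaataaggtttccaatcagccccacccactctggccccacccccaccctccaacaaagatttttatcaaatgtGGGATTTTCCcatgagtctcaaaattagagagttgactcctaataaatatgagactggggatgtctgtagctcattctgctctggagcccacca

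Icam1 (chromosome 9, 21015985 to 21028817, plus strand, protein coding) encodes the adhesion molecule that binds leukocyte integrins. Its counts were 92, 72 and 49 in CRISPRa replicates 2, 3 and 5 and 43, 49 and 42 in no-sgRNA replicates 2, 3 and 4. CRISPRa replicate 5, at 1.51 CPM, fell inside the control range of 1.33 to 1.65 CPM, so the groups overlapped. The means were 2.13 ± 0.584 and 1.46 ± 0.168 CPM (SD, n = 3), a log2FC of 0.54 (SE 0.32, edgeR adjusted p 0.271) that did not pass. Its exons lie opposite those of Gm47079 over 11.7% of their length.

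**Figure D2:**
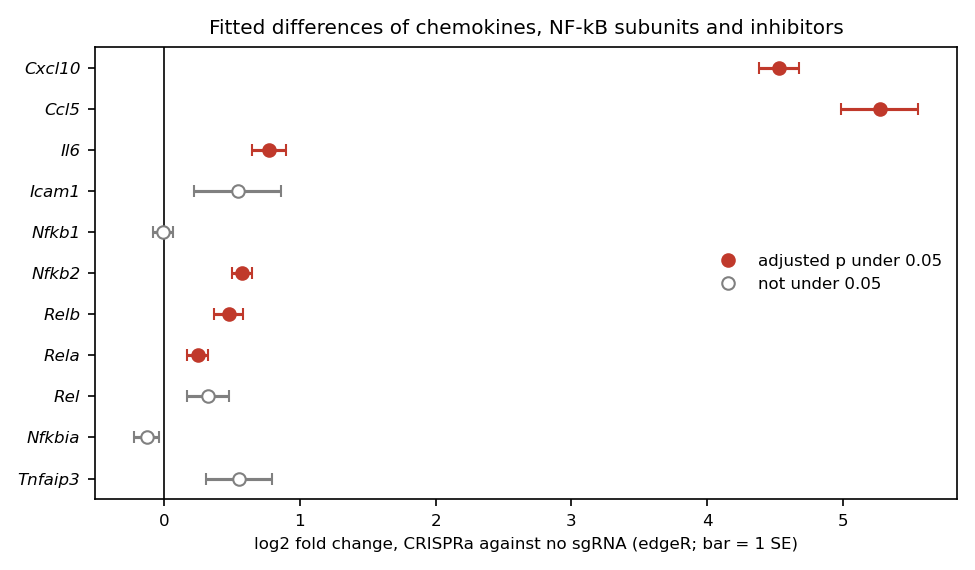
The horizontal axis gives the edgeR log2FC of CRISPRa against no sgRNA with a bar of 1 SE, for the 9 tested genes of the set together with Rela and Rel. Filled red points passed an adjusted p of 0.05; Cxcl10 (4.53) and Ccl5 (5.27) stand apart from the rest, which lie between -0.13 and 0.77.

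Of the subunit genes, Nfkb2 and Relb rose and Nfkb1 did not change detectably. Nfkb2 (chromosome 19, 46304320 to 46312385, plus strand, protein coding) encodes the precursor that the non-canonical branch processes. Its counts were 2311, 2034 and 2155 in the CRISPRa libraries. The controls held 1356, 1325 and 1343. All CRISPRa libraries lay between 62.3 and 67.1 CPM, well above the 42.4 to 44.6 CPM of the controls. Nfkb2 went from 43.8 ± 1.22 to 65.3 ± 2.59 CPM (SD, n = 3), a log2FC of 0.57 (SE 0.07), or 1.49-fold, with an edgeR adjusted p of 8.8e-05. Exons of other genes on the opposite strand, Psd among them, cover 18.1% of its exonic length. No source used here says whether reads were counted by strand, and Psd was itself higher with CRISPRa (log2FC 0.39, SE 0.08, edgeR adjusted p 0.00435), so part of either value may belong to the other gene.

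Relb (chromosome 7, 19606217 to 19629438, minus strand, protein coding) encodes RelB, the partner of the processed Nfkb2 product. It had 882, 824 and 769 counts in CRISPRa replicates 2, 3 and 5 and 556, 582 and 500 in no-sgRNA replicates 2, 3 and 4. The groups did not overlap, and here replicate 5 was the lowest CRISPRa library. Relb rose from 17.9 ± 1.92 to 24.8 ± 1.00 CPM (SD, n = 3), a log2FC of 0.48 (SE 0.11), or 1.39-fold, with an edgeR adjusted p of 0.00607.

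Nfkb1 (chromosome 3, 135584655 to 135691547, minus strand, protein coding) encodes the precursor of the usual partner of RelA. CRISPRa libraries held 2601, 2411 and 2559 counts, and the controls 2451, 2108 and 2477. Its groups overlapped, at 76.1 ± 2.57 and 76.5 ± 4.91 CPM (SD, n = 3). The log2FC was -0.0086 (SE 0.07, edgeR adjusted p 0.952), and its sign changed with the scaling.

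The remaining subunit genes were Rela, which encodes the main activating subunit, and Rel, which encodes c-Rel of lymphoid cells. Rela (chromosome 19, 5637483 to 5648130) went to 3321, 2833 and 2827 counts from 2152, 2449 and 2357, a log2FC of 0.25 (SE 0.08, edgeR adjusted p 0.0355). The groups of Rela did not overlap, but the call was lost when CRISPRa replicate 2 (0.21, edgeR adjusted p 0.137), CRISPRa replicate 3 (0.28, edgeR adjusted p 0.0556), no-sgRNA replicate 2 (0.20, edgeR adjusted p 0.134) or no-sgRNA replicate 4 (0.24, edgeR adjusted p 0.0828) was left out. Rel (chromosome 11, 23736847 to 23770970) averaged 10.4 ± 0.884 and 8.31 ± 1.57 CPM (SD, n = 3) with overlapping groups (log2FC 0.33, SE 0.16, edgeR adjusted p 0.167). Without no-sgRNA replicate 2 Rel passed, at 0.49 (edgeR adjusted p 0.0479).

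Ratios of length-scaled levels within a library do not depend on library scaling, and 6 such ratios were compared. Their size depends on the gene lengths used, whereas their log2 difference between the groups does not. The level of Nfkb2 per Nfkb1 was 2.34, 2.22 and 2.22 in CRISPRa replicates 2, 3 and 5 and 1.46, 1.65 and 1.43 in no-sgRNA replicates 2, 3 and 4. All CRISPRa libraries therefore held relatively more Nfkb2, a log2 difference of 0.58 (SE 0.07), and the exact two-sided permutation p was 0.1, the smallest that 3 against 3 allows (0.15 adjusted over the 6 ratios). Relb per Rela was 0.218 ± 0.0104 with CRISPRa and 0.187 ± 0.0183 without the guide (SD, n = 3), again without overlap (exact permutation p = 0.1, adjusted 0.15). Rela per Nfkb1 overlapped between the groups, at 4.65 ± 0.340 and 3.92 ± 0.578 (SD, n = 3; exact permutation p = 0.2, adjusted 0.2).

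The Nfkb2 promoter at the first of its 3 listed starts (GRCm38.p6, chr19:46304487-46304786, plus strand) is shown because Nfkb2 rose without an ISRE match in any of its windows. It held 2 kB matches, GGGGAATTCC on the minus strand at -38 to -29 and GGGGCTTTCC at -11 to -2.
Nfkb2: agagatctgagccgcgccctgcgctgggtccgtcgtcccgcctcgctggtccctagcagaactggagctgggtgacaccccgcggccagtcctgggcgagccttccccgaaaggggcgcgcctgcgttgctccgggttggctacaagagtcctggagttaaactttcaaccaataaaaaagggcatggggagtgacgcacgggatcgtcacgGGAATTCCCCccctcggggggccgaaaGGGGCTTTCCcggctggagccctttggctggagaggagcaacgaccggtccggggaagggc

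Among the inhibitors, neither Nfkbia nor Tnfaip3 passed the test. Nfkbia (chromosome 12, 55489410 to 55492647, minus strand, protein coding) encodes IkB-alpha, which NF-kB raises in a feedback loop. It had 2365, 2154 and 1715 counts in CRISPRa replicates 2, 3 and 5. The control counts were 2051, 2020 and 2209. CRISPRa replicate 5 was the lowest library, at 52.9 CPM, and the other libraries lay between 66.0 and 69.8 CPM irrespective of group. The means were 62.5 ± 8.44 and 68.3 ± 1.31 CPM (SD, n = 3), a log2FC of -0.13 (SE 0.09, edgeR adjusted p 0.363), and without CRISPRa replicate 5 the value was -0.014 (edgeR adjusted p 0.930). The promoter of Nfkbia (GRCm38.p6, chr12:55492598-55492897, minus strand) is shown because it held a kB match, GGGAATTTCC on the minus strand at -29 to -20, in a gene that was not called.
Nfkbia: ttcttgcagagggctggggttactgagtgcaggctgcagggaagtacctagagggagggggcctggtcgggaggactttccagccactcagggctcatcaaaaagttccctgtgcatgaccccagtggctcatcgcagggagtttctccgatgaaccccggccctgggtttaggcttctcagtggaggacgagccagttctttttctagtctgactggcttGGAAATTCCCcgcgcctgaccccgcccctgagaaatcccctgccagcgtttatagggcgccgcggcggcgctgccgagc

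Tnfaip3 (chromosome 10, 19000910 to 19015657, minus strand, protein coding) encodes a ubiquitin-editing enzyme that ends NF-kB signalling. CRISPRa libraries held 126, 126 and 140 counts of it, and the controls 109, 66 and 72. The groups did not overlap, but no-sgRNA replicate 2, at 3.57 CPM, came close to the lowest CRISPRa library, at 3.66 CPM. The means were 3.94 ± 0.338 and 2.69 ± 0.765 CPM (SD, n = 3), a log2FC of 0.55 (SE 0.25, edgeR adjusted p 0.137). Without no-sgRNA replicate 2 it passed, at 0.81 (edgeR adjusted p 0.0449). The level of Tnfaip3 per Nfkbia was 0.0119, 0.0130 and 0.0182 with CRISPRa and 0.0118, 0.00728 and 0.00726 without the guide (exact two-sided permutation p = 0.1, adjusted 0.15).

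**Figure D3:**
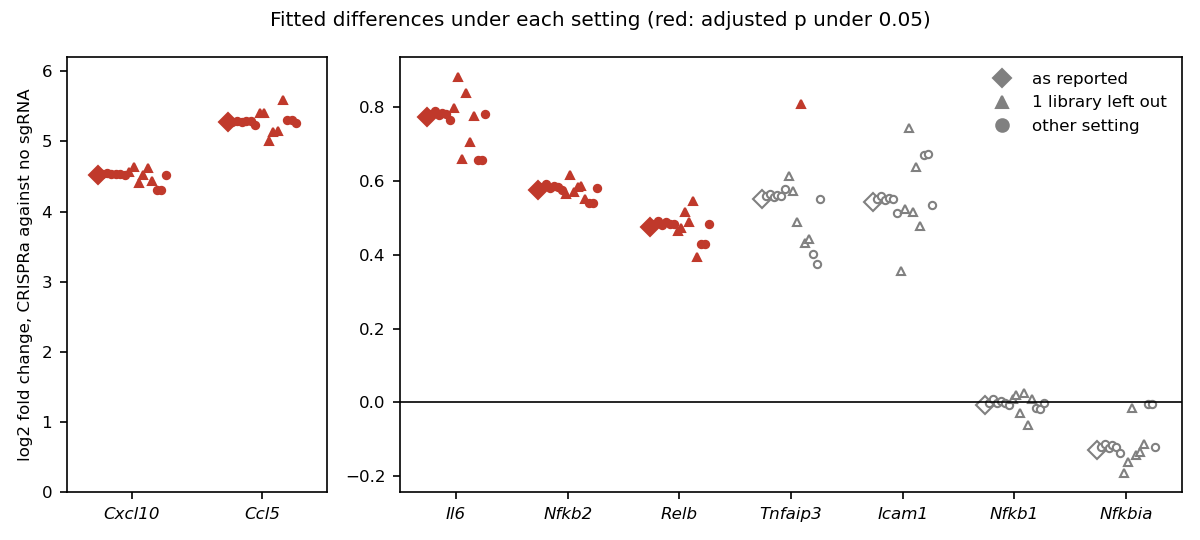
Points give the log2FC of CRISPRa against no sgRNA for the 9 tested genes, with a diamond for the value as reported, triangles for the 6 fits that left out 1 library and circles for other settings; filled red points passed an adjusted p of 0.05. Cxcl10, Ccl5, Il6, Nfkb2 and Relb are red at every setting drawn, and Tnfaip3 at 1 of them.

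The order of the genes by level per kilobase of exon (RPKM, computed from the CPM) differed between the groups. This order depends on the deposited gene lengths, such as 12061 bases for Nfkb1 and 4584 for Nfkb2. By CPM without the guide, Nfkb1 (76.5) stood above Nfkb2 (43.8). Without the guide Nfkbia stood first, at 42.5 ± 0.815 RPKM (SD, n = 3), followed by Nfkb2, Nfkb1, Il6 and Relb, with Cxcl10 in rank 6 at 0.950 ± 0.124 RPKM and Ccl5 in rank 7 at 0.428 ± 0.142 RPKM. With CRISPRa Nfkbia was still first, at 38.8 ± 5.24 RPKM, and Cxcl10 (21.9 ± 3.35 RPKM) and Ccl5 (16.8 ± 5.11 RPKM) came next. Their ranges overlapped each other, and that of Ccl5 overlapped that of Nfkb2, at 14.2 ± 0.565 RPKM, and the ranges of Relb and Nfkb1 and of Tnfaip3 and Icam1 overlapped too. Tnfaip3, Icam1 and Ccl2 were the lowest in both groups, under 0.6 RPKM on average. In the control libraries the ranges of Nfkb1 and Il6 overlapped, as did those of Ccl5 with Tnfaip3 and of Tnfaip3 with Icam1. Ccl5 per Cxcl10 was 0.756 ± 0.120 with CRISPRa and 0.468 ± 0.216 without the guide (SD, n = 3), with overlap (exact permutation p = 0.2, adjusted 0.2).

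Promoter windows of 300 bases were listed for 6 of the 10 genes, 9 windows in all, and Ccl5, Ccl2, Nfkb1 and Relb were not matched. A kB match was present in at least 1 window of 5 of the 6, namely Cxcl10, Il6, Nfkb2, Nfkbia and Tnfaip3, and the Icam1 window held neither pattern. The Icam1 window did hold tggaaattcc, which is 1 letter off the kB pattern and was not counted by this exact search. Cxcl10 was the only one of the 6 with an ISRE match. Of all 32851 windows in the table, 5.56% held the kB pattern, 3.44% the ISRE pattern and 0.167% both. These are shares of windows and not of genes, and the motifs were chosen with the members' promoter sequences in view. Genes with a kB match were thus among the called (Cxcl10, Il6, Nfkb2) and among those not called (Nfkbia, Tnfaip3). A match is a description of letters and not evidence of binding.

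**Figure D4:**
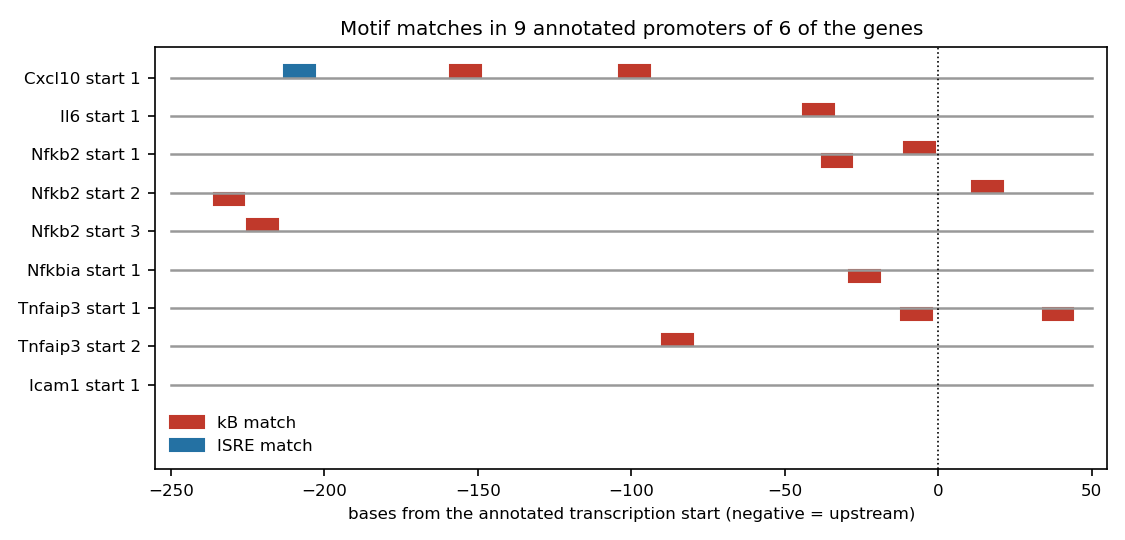
Lines are the 9 promoter windows from 250 bases before to 50 after an annotated start, with kB matches in red and ISRE matches in blue, drawn above the line for the plus strand of the gene and below it for the minus strand. Windows at starts 2 and 3 of Nfkb2 overlap and share 1 kB match; Cxcl10 carries the only ISRE match.

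The wider pathway was described with lists of other genes, also chosen with earlier results of these data known. Of 21 NF-kB ligands and receptors, 10 were tested, and Cd40, Tnfrsf12a and Il33 rose while the other 7 were not called (over all tested genes 9.47% were called higher). Cd40, a receptor that drives both NF-kB branches in immune cells, rose from 9.44 ± 1.37 to 17.6 ± 4.37 CPM (SD, n = 3; log2FC 0.90, SE 0.17, edgeR adjusted p 0.00191). Tnfrsf12a, the receptor of the cytokine TWEAK, rose from 50.3 ± 3.95 to 80.9 ± 4.85 CPM (SD, n = 3; log2FC 0.69, SE 0.08, edgeR adjusted p 3.33e-05). Il33, an alarmin of the interleukin-1 family, had a log2FC of 0.61 (SE 0.13, edgeR adjusted p 0.00415). The upstream cytokines Tnf and Il1b were close to absent, at no more than 6 and 34 counts in any library. The median log2FC of the tested ligands and receptors was 0.16, against -0.0071 for all tested genes.

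Of 29 signalling genes, 27 were tested, and 5 rose and 0 fell, with a median log2FC of 0.089. As a share, these 5 of 27 are above the 9.47% of all tested genes called higher and close to the 18.7% called in either direction. Whether this sets the list apart was not tested. Myd88, the adaptor of Toll-like and interleukin-1 receptors, rose from 4.48 ± 0.857 to 7.36 ± 0.916 CPM (SD, n = 3; log2FC 0.72, SE 0.19, edgeR adjusted p 0.0152). It was not called without CRISPRa replicate 5 (0.64, edgeR adjusted p 0.0511) or without no-sgRNA replicate 4 (0.57, edgeR adjusted p 0.0576), and another gene covers 11.3% of its exon length from the opposite strand. Rnf31, which encodes the catalytic subunit of the linear ubiquitin ligase, had a log2FC of 0.51 (SE 0.09, edgeR adjusted p 0.000812), and shares 2.15% of its exonic bases with the interferon-stimulated gene Irf9 on the same strand. Irf9 itself rose (log2FC 2.48, SE 0.07, edgeR adjusted p 1.49e-12), so part of the Rnf31 value may belong to Irf9, which was not tested. Ikbkb, the kinase that marks IkB for breakdown, had a log2FC of 0.51 (SE 0.09, edgeR adjusted p 0.00181). Irak1, a kinase that acts after Myd88, had a log2FC of 0.32 (SE 0.06, edgeR adjusted p 0.00333). The fifth gene was Tbk1, chosen for mention after its value was seen, which also activates interferon regulatory factors (log2FC 0.27, edgeR adjusted p 0.0186).

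Of 15 other genes listed as inhibitors or regulators of NF-kB, 13 were tested, and Nfkbiz and Rnf11 rose (median log2FC of the list 0.091). As a share, these 2 of 13 lie between the 9.47% of all tested genes called higher and the 18.7% called in either direction. Whether this sets the list apart was not tested. Nfkbiz, which encodes a nuclear IkB protein, had a log2FC of 0.43 (SE 0.09, edgeR adjusted p 0.00415). Rnf11, a partner of the Tnfaip3 product, had one of 0.23 (SE 0.08, edgeR adjusted p 0.0473). Leaving out CRISPRa replicate 2, 3 or 5 or no-sgRNA replicate 2 or 3 left 1 called gene in this list, as Rnf11 was lost each time (edgeR adjusted p 0.0566 to 0.180).

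Of 41 other textbook NF-kB targets, 25 were tested, 12 rose and 1 fell, where 9.47% and 9.25% of all tested genes did, and the median log2FC was 0.31. Cxcl2 and Cxcl1, chemokines that draw neutrophils, had the largest values. For Cxcl1 the CRISPRa libraries held 118, 170 and 166 counts and the controls 22, 34 and 22 (log2FC 2.42, SE 0.30, edgeR adjusted p 6.45e-05). Cxcl2 had 112, 83 and 178 counts against 10, 23 and 2, a log2FC of 3.28 (SE 0.52, edgeR adjusted p 0.000591) that was 4.25 without no-sgRNA replicate 3 and 2.39 on the libraries numbered 2 and 3 alone (2.42 with the replicate block), and 5.84% of the 50-base words in its transcripts also occur in another gene, such as Cxcl3. The groups did not overlap for either gene. Lif, a cytokine of the interleukin-6 family, rose from 3.57 ± 1.11 to 8.75 ± 1.44 CPM (SD, n = 3; log2FC 1.30, SE 0.22, edgeR adjusted p 0.000822). Lcn2, which encodes an iron-binding protein of inflammation, had 54, 44 and 130 counts against 16, 18 and 16 (log2FC 2.07, SE 0.46, edgeR adjusted p 0.00546), and without CRISPRa replicate 5 it was not called (1.42, edgeR adjusted p 0.0560). The 1 gene of the list that fell was Gadd45b, chosen for mention after its value was seen, with 970, 893 and 517 counts against 1226, 1268 and 1666 (log2FC -0.92, SE 0.17, edgeR adjusted p 0.00142). Irf1, likewise chosen afterwards and known as a target of both NF-kB and interferon signalling, rose from 12.9 ± 0.330 to 31.4 ± 2.30 CPM (SD, n = 3; log2FC 1.29, SE 0.10, edgeR adjusted p 3.98e-07).

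Chemokines beyond the 3 members were mostly silent. Of 33, 16 had 0 counts in all 6 libraries and 25 had at most 10 counts in any, and 8 were tested, of which 3 rose and 1 fell (9.47% and 9.25% over all tested genes). Besides Cxcl1 and Cxcl2, described above, Ccl25, a chemokine of the thymus and gut, rose from 11.7 ± 0.662 to 16.8 ± 0.425 CPM (SD, n = 3; log2FC 0.52, SE 0.11, edgeR adjusted p 0.00466). Pf4, the platelet chemokine and the most abundant of the list, fell from 105 ± 12.5 to 85.0 ± 7.45 CPM (SD, n = 3; log2FC -0.31, SE 0.09, edgeR adjusted p 0.0255). Pf4 was not called without CRISPRa replicate 5 (-0.23, edgeR adjusted p 0.0993), without no-sgRNA replicate 3 (-0.32, edgeR adjusted p 0.0731) or without no-sgRNA replicate 4 (-0.22, edgeR adjusted p 0.111), and not with the replicate block (-0.14, edgeR adjusted p 0.120) on the libraries numbered 2 and 3. Cxcl5 had 58, 192 and 137 counts against 86, 54 and 30, with overlap (log2FC 1.08, SE 0.42, edgeR adjusted p 0.0893). Cxcl9 and Cxcl11, which share the receptor CXCR3 with Cxcl10, had at most 2 and 4 counts in any library.

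Receptors for the members' products were also few. Of 14 listed, 6 were tested and 2 rose, the subunits of the interleukin-6 receptor (9.47% of all tested genes were called higher). Il6st, the signalling subunit, rose from 113 ± 4.70 to 144 ± 2.32 CPM (SD, n = 3; log2FC 0.36, SE 0.06, edgeR adjusted p 0.00117). Il6ra, the ligand-binding subunit, had 66, 54 and 106 counts against 22, 2 and 4 (log2FC 2.89, SE 0.60, edgeR adjusted p 0.00397), and without no-sgRNA replicate 2 the value was 4.49 (edgeR adjusted p 0.000485), against 2.16 on the libraries numbered 2 and 3 alone (edgeR adjusted p 0.0198). The groups did not overlap for either subunit. Cxcr3 had at most 4 counts in any library, and Ccr1 and Ccr3 had 0 in all 6.

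The interferon arm was set beside these lists. All 30 of 30 listed interferon-stimulated genes rose, where 9.47% of all tested genes did. The list was chosen with earlier results of these data known. Its median log2FC was 4.76 (4.70 with Zbp1 at its lower bound), and the lowest value was 1.29, for Trim25. Of the 9 tested NF-kB and chemokine genes, Cxcl10 and Ccl5 exceeded that lowest value and the other 7 lay under it. The genes named by rule were Oas2, Oas3 and Ifi44 of the antiviral response and Zbp1, a sensor of Z-form nucleic acids. Ifi44 had 2930, 3242 and 7341 counts against 10, 4 and 6. Oas2 had 2228, 2694 and 4150 counts against 4, 0 and 2, and Oas3 had 852, 931 and 1465 against 0, 0 and 4. Zbp1 had 101, 55 and 153 counts against 0 in every control, at least 31.7-fold higher when each control library is set to 3 counts. CRISPRa replicate 5 was the highest library for all of these, as it was for Cxcl10, Ccl5, Il6 and Tnfaip3. Not every listed interferon-stimulated gene shared this order, as Ddx58 had 4441, 4276 and 3887 counts in CRISPRa replicates 2, 3 and 5. The level of Cxcl10 per Isg15 was 0.0677, 0.0579 and 0.0677 with CRISPRa and 0.0463, 0.0516 and 0.0509 without the guide, so the ratio was higher in every CRISPRa library than in any control (log2 difference 0.38, SE 0.09; exact two-sided permutation p = 0.1, adjusted 0.15). Of 13 interferon and interferon receptor genes, the 11 interferon genes had 0 counts in all 6 libraries, and Ifnar1, the receptor subunit with the higher CPM, was at 81.5 ± 5.07 and 81.0 ± 1.91 CPM (SD, n = 3; edgeR adjusted p 0.946).

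**Figure D5:**
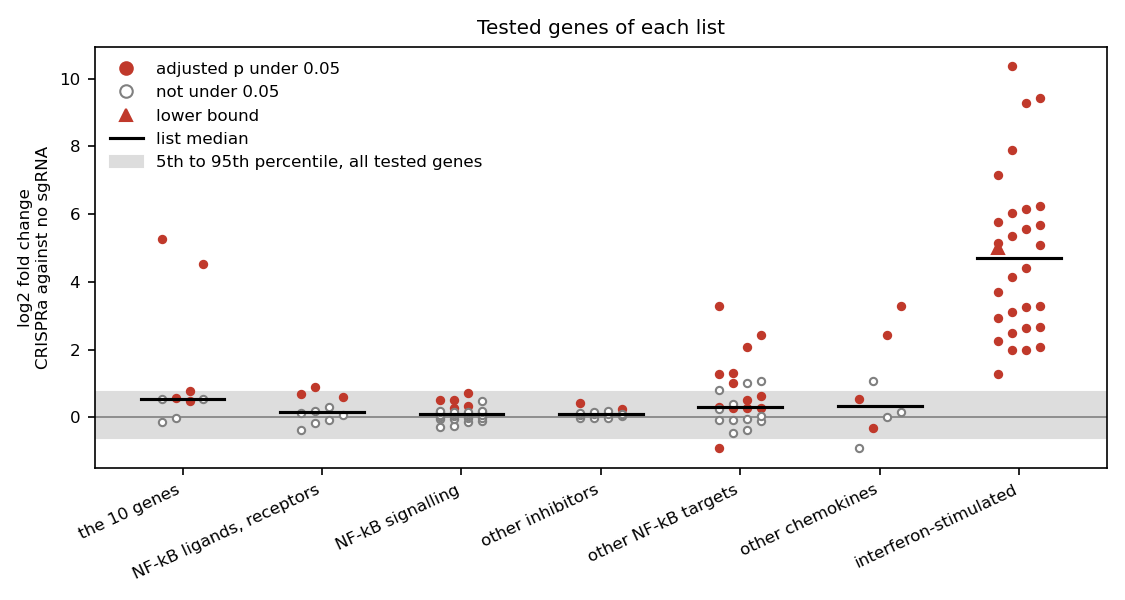
The vertical axis gives the log2FC of CRISPRa against no sgRNA for each tested gene of 7 lists, with red points for an adjusted p under 0.05, open points for the rest, a triangle for the lower bound of Zbp1 and a black line for the list median with that bound; the grey band spans the 5th to 95th percentile of all 15117 tested genes, -0.60 to 0.76. All 30 interferon-stimulated genes lie above the band, as do Cxcl10 (4.53), Ccl5 (5.27) and Il6 (0.77) among the 9 tested members.

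The authors' deposited table compares 8 samples, which is the number the labels list, and so cannot be taken as separate from the 6 libraries above. Its direction is not stated and was read from the interferon-stimulated genes, which are positive in it. Among the 10 genes, 9 have an adjusted p in the authors' deposited table, and 7 of them are under 0.05 with a positive log2FC, against 14.8% of the 13798 genes with an adjusted p. Cxcl10 and Ccl5 have log2FCs of 4.55 (SE 0.13) and 5.44 (SE 0.27) in the authors' deposited table. Tnfaip3 (0.84, SE 0.23, adjusted p 0.00186) and Icam1 (0.66, SE 0.25, adjusted p 0.0315) pass in the authors' deposited table and did not pass in the 6 libraries. Nfkb1 (-0.035, adjusted p 0.711) and Nfkbia (0.027, adjusted p 0.824) do not pass in the authors' deposited table either.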

How the data were processed

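The assay was RNA sequencing of Neuro2a cells. The authors deposited whole-number read counts per gene, made with STAR 2.5.1b and featureCounts on build mm10, per the submitters' processing notes, together with a length for each gene. Annotation, strandedness and the treatment of multi-mapping reads are not given in the sources used here. All 34 named genes chosen by the rule have the same span in GENCODE M21 (GRCm38) as in the count table. A second deposited table holds the authors' own comparison: a signal (mean normalised count), a log2 fold change with its SE, a Wald score and p-values, per the file headers.

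Counts of the 6 libraries were tested in R 4.3.3 with edgeR 4.0.16 by quasi-likelihood (filterByExpr defaults, TMM factors, no covariate), and p-values were adjusted (Benjamini-Hochberg) over the 15117 genes that passed the filter, with 0.05 as the threshold. The SE of a log2 fold change is its size over the square root of F. Samples CRISPRa 1 and no-sgRNA 5 were not analysed here. Lists were described by counts and medians. The script was tested on simulated data. Members and lists were chosen with earlier results of these data known, and the motifs with the members' promoter sequences in view. Named genes are the 10 members, Rela, Rel and, per list, up to 4 called genes with the largest change, groups that do not overlap and a mean of 1 CPM or more, or else the gene with the highest mean CPM. Shared sequence is the percentage of 50-base words in GENCODE M21 transcripts that occur in another gene. Promoters are from RefSeq (GRCm38.p6).

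The alternatives were RLE (median-ratio) factors, totals alone as scaling, dropping only genes with no count, a filter keeping genes that reach 1 CPM in 3 or more libraries, limma-voom (limma 3.58.1), DESeq2 1.42.0 with its independent filtering switched off, the replicate number as a block, and fits that omit 1 library each. Halving every count (rounded up) was added after the data were seen.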

Additional observations from a re-analysis of the deposited data

How the results depend on the processing

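The 5 called members, Cxcl10, Ccl5, Il6, Nfkb2 and Relb, kept their direction and passed in all 15 alternatives, 6 of which left out 1 library. The count of called members was 5 in 14 of them and 6 without no-sgRNA replicate 2, where Tnfaip3 passed. Nfkbia, Icam1 and Nfkb1 passed in none. The log2 fold change of Nfkb1 turned positive under library size only (0.0077), with the filter of 1 CPM in 3 or more libraries (0.0032) and in 4 fits without 1 library (range over all 6 such fits -0.061 to 0.026), and that of Ifnar1 turned negative in 4 such fits (range over all 6 -0.0094 to 0.068). Over all genes the called count ran from 1987 to 3170. The count of called genes among the other inhibitors or regulators, 2, ran from 1 to 3 over the fits without 1 library.

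Replicate numbers 2 and 3 occur in both groups, but same-numbered libraries did not deviate together (correlations over 15117 genes -0.0046 and -0.026). With the replicate block on those 4 libraries 3170 genes and 5 members were called, against 2830 and 5 without the block. Of the NF-kB signalling genes, 6 were called with the block and 5 without it. In each case 4 of them were higher, so not every called signalling gene rose there. Of the other named genes, Myd88 (0.48), Lcn2 (1.36) and Pf4 (-0.14) were not called with the block, nor on the same 4 libraries unblocked. Low counts limit the precision for Ccl2, Icam1 and Tnfaip3.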
